A study of Mus musculus with 12 samples.

Results

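In colon tumours of mice carrying transplanted bone marrow, 10 genes that mark dendritic cells were followed, all 10 of them found among the 24062 genes of the count table. The genes were listed by name, with no threshold on a measured value, namely Clec9a, Xcr1 and Batf3 of the cross-presenting (conventional type 1) dendritic cells, and Flt3, Zbtb46, Clec10a, Cd209a, Siglech, Itgax and Itgae as the 7 others. Recipients were WT or St2-/- mice of the Balb/c background. They were irradiated lethally, were given WT or St2-/- marrow, and after 8 weeks began 6 weekly injections of azoxymethane (AOM, 10 mg/kg), a carcinogen of the colon. Tumour collection followed the final injection by 13 or 14 weeks. St2-/- mice lack ST2, the interleukin-33 receptor encoded by Il1rl1. Groups are written as marrow => host, with 3 libraries in each of WT => St2-/-, St2-/- => St2-/-, St2-/- => WT and WT => WT, so every animal of every group was irradiated, transplanted and treated with AOM. The labels call the libraries biological replicates, and each is an excised tumour, a bulk sample in which fewer cells of a type and less RNA per cell cannot be told apart. Residual host leukocytes and the degree of chimerism are not given in the labels.

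Dendritic cells take up antigen and present it to T cells. The cross-presenting type, which depends on the transcription factor BATF3, passes on material of dead cells, including tumour cells, to CD8 T cells. Type 2 conventional dendritic cells mainly serve CD4 T cells, and plasmacytoid dendritic cells are known for type I interferon. All arise from bone marrow under the growth factor FLT3 ligand, so in a chimera most of them carry the genotype of the donor.

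Gene counts per library summed to between 10293818 and 12962496. Il1rl1 checked the host labels, at 7.30 to 25.0 CPM (library-size scaled counts, with TMM factors) in the 6 St2-/- hosts and 36.5 to 275 CPM in the 6 WT hosts, without overlap. All WT hosts carried animal numbers of one form and all St2-/- hosts of another, so a difference of cohort and one of host cannot be told apart. The 1 female was WT => St2-/- replicate 3. All 10 dendritic cell genes passed the filter on low counts, and each had reads in all 12 libraries, but most were low. The lowest was Cd209a, at 2 to 17 reads a library. The labelled tissue was checked with the 5 epithelial markers Epcam, Cdh1, Krt8, Krt20 and Vil1, which summed to 3377 to 8487 CPM in St2-/- hosts and 6429 to 10597 CPM in WT hosts. Of the dendritic cell genes, the integrin Itgax is also made by macrophages and Itgae by intraepithelial T cells.

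The promoters of the 3 cross-presenting genes are shown because this set was to be compared with the other genes. That of Itgax was picked as an example that holds a searched motif. The sequences are RefSeq windows on GRCm38.p6 of 300 bases, from 250 before to 50 after the RefSeq start, and capitals mark a motif. That start can differ from the start of the gene in the GENCODE annotation. The Batf3 window lies inside the GENCODE gene, which begins at base 191097847. Clec9a lies at chr6:129408612-129408911 on the plus strand, Xcr1 at chr9:123861980-123862279 on the minus strand, Batf3 at chr1:191098164-191098463 on the plus strand and Itgax at chr7:128129300-128129599 on the plus strand.
Clec9a: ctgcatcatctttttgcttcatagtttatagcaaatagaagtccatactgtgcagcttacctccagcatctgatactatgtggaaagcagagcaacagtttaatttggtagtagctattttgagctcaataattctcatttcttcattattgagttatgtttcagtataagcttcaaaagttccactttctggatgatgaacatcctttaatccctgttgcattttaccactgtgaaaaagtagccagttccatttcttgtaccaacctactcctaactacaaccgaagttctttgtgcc
Xcr1: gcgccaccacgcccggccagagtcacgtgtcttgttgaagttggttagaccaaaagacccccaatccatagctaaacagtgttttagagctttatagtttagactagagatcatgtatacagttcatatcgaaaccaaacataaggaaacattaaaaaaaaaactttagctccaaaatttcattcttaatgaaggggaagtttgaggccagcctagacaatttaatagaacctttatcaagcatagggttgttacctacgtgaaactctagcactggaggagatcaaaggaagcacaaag
Batf3: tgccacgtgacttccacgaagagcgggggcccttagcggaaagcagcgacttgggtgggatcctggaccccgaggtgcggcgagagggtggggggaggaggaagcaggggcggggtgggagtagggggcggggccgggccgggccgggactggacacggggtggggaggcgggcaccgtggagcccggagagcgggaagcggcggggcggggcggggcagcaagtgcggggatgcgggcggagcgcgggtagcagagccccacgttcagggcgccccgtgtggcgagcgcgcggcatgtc
Itgax: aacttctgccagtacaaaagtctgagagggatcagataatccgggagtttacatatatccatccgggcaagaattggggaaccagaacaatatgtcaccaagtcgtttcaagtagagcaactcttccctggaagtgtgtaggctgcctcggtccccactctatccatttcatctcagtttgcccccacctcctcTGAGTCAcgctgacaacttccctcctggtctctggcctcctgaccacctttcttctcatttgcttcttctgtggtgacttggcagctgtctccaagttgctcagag

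The windows of the cross-presenting genes differ in composition, with 37.0% G and C in Clec9a, 40.0% in Xcr1 and 75.7% in Batf3, against a median of 52.7% over 32851 promoters. Both strands were searched for GAAA, any 2 bases and GAAA (the core of interferon-stimulated elements), TGANTCA (AP-1), GAGGAAGT (PU.1) and GGAA, any 2 bases and GAAA (Ets-IRF composite, which can overlap the first). None of these letters stands in the windows of Clec9a, Xcr1 or Batf3, nor in those of Flt3 and Siglech. Over all promoters the shares were 3.44%, 7.81%, 3.2% and 2.72% in that order. Itgax holds TGAGTCA, a match to AP-1, at -56 from the RefSeq start, Zbtb46 an AP-1 match at -61 and Cd209a an Ets-IRF match at -9. The Zbtb46 window, at bases 181424339 to 181424638 of chromosome 2, lies inside the GENCODE gene, which spans bases 181387762 to 181459426. Its match is thus not placed relative to the GENCODE start. Of the 10 genes 8 had a window, and Clec10a and Itgae had none in the table.

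The comparison of St2-/- hosts with WT hosts, averaged over the marrows, asks whether ST2 in the host matters to these genes with either marrow. Clec9a fell, and the 9 other genes were not called by edgeR. DESeq2, run as an alternative, called Clec9a, Xcr1 and Itgax, 3 of the 10, against 7.96% of all genes in that test. Clec9a encodes DNGR-1, a C-type lectin that senses actin exposed by dead cells. The gene spans bases 129408862 to 129424763 of chromosome 6 (GRCm38, plus strand). In WT => St2-/- its level was 1.18, 2.17 and 1.76 CPM in replicates 1 to 3, from 14, 25 and 20 reads. In St2-/- => St2-/- it was 2.22, 1.82 and 1.78 CPM, from 29, 23 and 23 reads. In St2-/- => WT it was 4.05, 6.51 and 2.95 CPM, from 47, 76 and 34 reads. In WT => WT it was 4.72, 4.15 and 5.81 CPM, from 55, 43 and 73 reads. All 6 St2-/- hosts were thus below all 6 WT hosts, and the nearest pair was 2.22 CPM in St2-/- => St2-/- replicate 1 against 2.95 CPM in St2-/- => WT replicate 3.

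Clec9a averaged 1.82 ± 0.372 CPM in St2-/- hosts and 4.70 ± 1.29 CPM in WT hosts (SD, n = 6 each). Its log2 fold change was -1.36 (SE 0.26), a ratio of 0.388, with an edgeR adjusted p of 0.033 over 15060 genes. Of the 10 genes 1 was called, against 1.37% of all genes in either direction and 1.08% that fell. Groups without overlap, with St2-/- hosts lower, were seen in 1.71% of genes. The call sat near the threshold. Library measures differed with host as well, since entries without a gene held 52.3% to 59.6% of reads in St2-/- hosts and 49.8% to 53.2% in WT hosts, and TMM factors were 0.968 to 1.12 in St2-/- hosts and 0.899 to 0.986 in WT hosts, both with overlap. Their part in the result was not tested. It was lost when any 1 of 9 of the 12 libraries was left out (adjusted p 0.0533 to 0.123) and held without WT => St2-/- replicates 1 or 2 or St2-/- => WT replicate 3, while the log2 fold change stayed between -1.48 and -1.17. The libraries whose removal ended it were WT => St2-/- replicate 3, St2-/- => WT replicates 1 and 2, and all of St2-/- => St2-/- and WT => WT. Of the exonic bases of Clec9a, 184 are shared with Clec1b on the same strand, which had 0 to 8 reads a library.

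**Figure D1:**
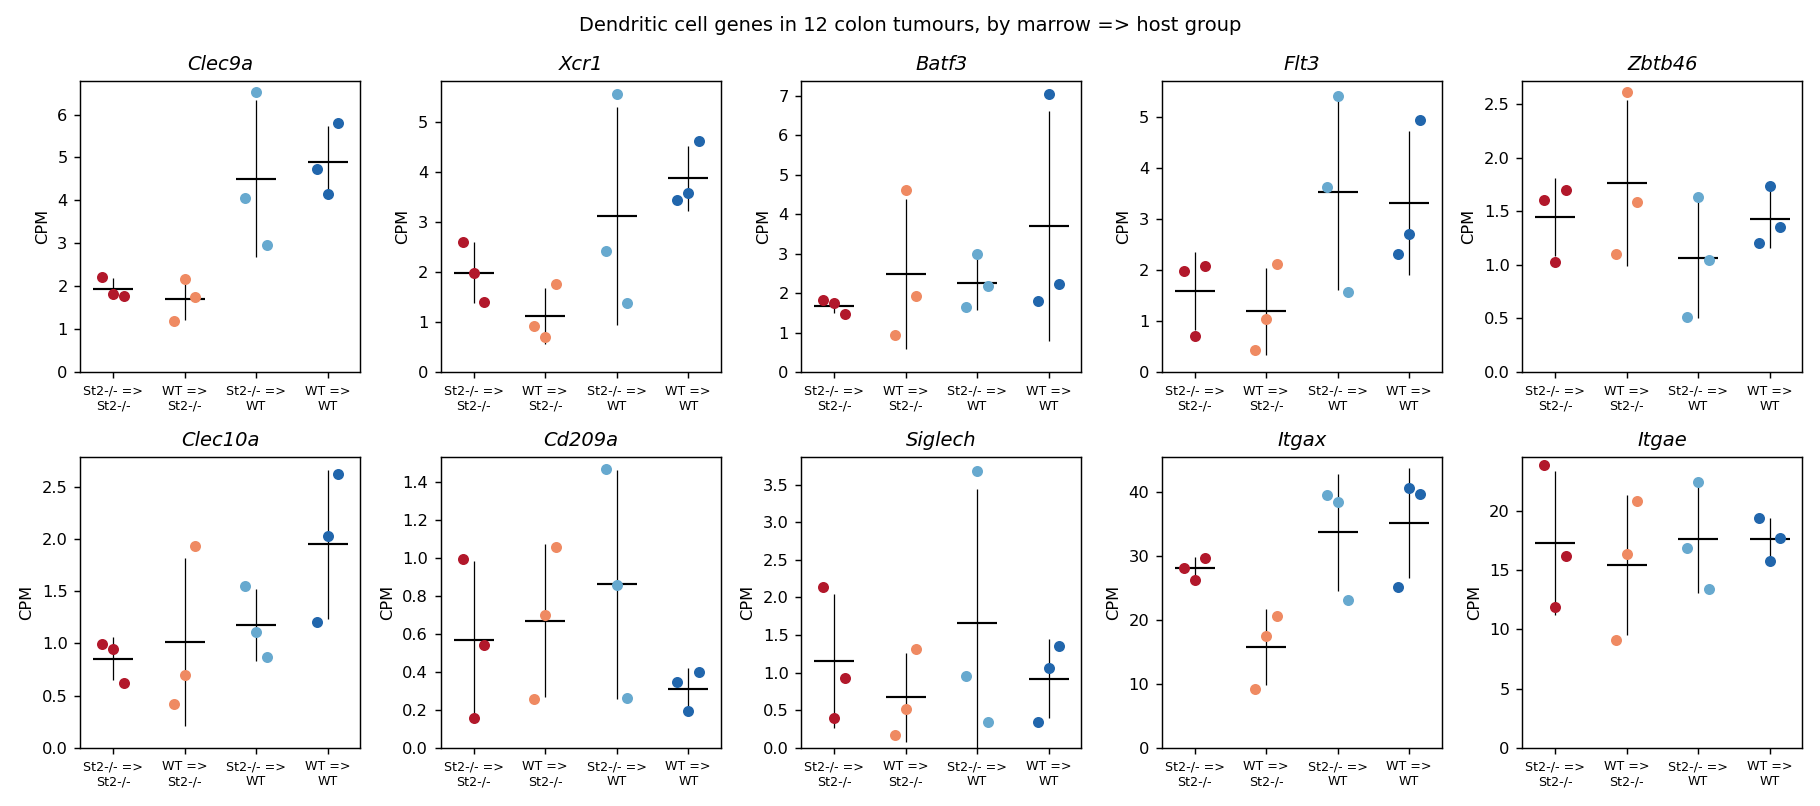
Level of each dendritic cell gene in CPM (vertical axes, from 0) for the 3 libraries of each marrow => host group, with the mean as a horizontal bar and the SD as a vertical line, drawn no lower than 0. In the Clec9a panel the 6 St2-/- hosts lie at 1.18 to 2.22 CPM and the 6 WT hosts at 2.95 to 6.51 CPM, while the other panels overlap between hosts.

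Xcr1 encodes the receptor for the chemokine XCL1 and is the surface mark of the same cells. Its level was 0.931, 0.696 and 1.76 CPM in WT => St2-/-, and 2.60, 1.98 and 1.39 CPM in St2-/- => St2-/-. It was 2.41, 5.57 and 1.39 CPM in St2-/- => WT, and 3.43, 3.57 and 4.62 CPM in WT => WT. The lowest WT host, St2-/- => WT replicate 3, fell among the St2-/- hosts, so the hosts overlapped, whereas the 3 WT => WT libraries were above all 6 St2-/- hosts. The log2 fold change was -1.21 (SE 0.38, edgeR adjusted p = 0.131), and DESeq2 gave Xcr1 an adjusted p of 0.0366. Xcl1, the gene of its ligand, did not pass the filter and averaged 0.156 ± 0.199 CPM in St2-/- hosts and 0.821 ± 0.515 CPM in WT hosts (SD, n = 6 each).

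Batf3, the transcription factor gene of the lineage, was not ordered by host. It stood at 0.931, 4.61 and 1.93 CPM in WT => St2-/-, and at 1.83, 1.74 and 1.47 CPM in St2-/- => St2-/-. It stood at 1.64, 3.00 and 2.17 CPM in St2-/- => WT, and at 1.80, 7.05 and 2.23 CPM in WT => WT. One library in each of the WT marrow groups was high, replicate 2 in both. The log2 fold change was -0.50 (SE 0.45, adjusted p = 0.56), and it was -0.066 without WT => WT replicate 2 and -0.89 without WT => St2-/- replicate 2. Neither library was the highest of the 12 for Clec9a or Xcr1.

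Flt3 encodes the receptor tyrosine kinase that drives dendritic cell development and is also found on progenitors. It was at 0.423, 1.04 and 2.11 CPM in WT => St2-/-, and at 1.99, 0.712 and 2.09 CPM in St2-/- => St2-/-. It was at 3.62, 5.40 and 1.56 CPM in St2-/- => WT, and at 2.32, 2.71 and 4.94 CPM in WT => WT. Of the WT hosts 5 of 6 were above every St2-/- host, and St2-/- => WT replicate 3 lay among them. The log2 fold change was -1.31 (SE 0.46, adjusted p = 0.164). Zbtb46, a transcription factor of conventional dendritic cells that endothelium also makes, averaged 1.60 ± 0.566 CPM in St2-/- hosts and 1.25 ± 0.442 CPM in WT hosts (SD, n = 6 each). Its log2 fold change was 0.37 (SE 0.34, adjusted p = 0.569), on the other side of 0 from that of Flt3.

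Clec10a and Cd209a encode lectins and were listed here for type 2 and monocyte-derived dendritic cells. Whether other cells of the tumours, such as macrophages, made them was not tested. Clec10a averaged 0.936 ± 0.533 CPM in St2-/- hosts and 1.57 ± 0.658 CPM in WT hosts (SD, n = 6 each), a log2 fold change of -0.70 (SE 0.40, adjusted p = 0.341). It has a close relative in Mgl2, and the table tallies reads without a unique alignment in an entry of their own, so its level is uncertain. Cd209a averaged 0.616 ± 0.371 CPM in St2-/- hosts and 0.586 ± 0.490 CPM in WT hosts, a log2 fold change of 0.23 (SE 0.55, adjusted p = 0.851). It belongs to a cluster of close relatives and is uncertain for the same reason. Cd209a rested on 45 reads over the 6 St2-/- hosts and 41 over the 6 WT hosts, so only a difference well beyond its SE was detectable at this depth.

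Siglech encodes the siglec that marks plasmacytoid dendritic cells of the mouse. It lay between 0.169 and 2.14 CPM in St2-/- hosts, with a median of 0.725 CPM, and between 0.343 and 3.69 CPM in WT hosts, with a median of 1.01 CPM. The highest library was St2-/- => WT replicate 2, at 3.69 CPM from 43 reads. The log2 fold change was -0.49 (SE 0.68, adjusted p = 0.722), and it was 0.20 without that library.

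Itgax (CD11c) and Itgae (CD103) were the best counted of the 10, with 108 or more reads in every library. Itgax was at 9.14, 17.5 and 20.7 CPM in WT => St2-/-, and at 28.2, 26.4 and 29.8 CPM in St2-/- => St2-/-. It was at 39.6, 38.5 and 23.2 CPM in St2-/- => WT, and at 25.2, 40.7 and 39.7 CPM in WT => WT. The 3 WT => St2-/- libraries were below all others, and the other St2-/- hosts overlapped the WT hosts. The log2 fold change between hosts was -0.71 (SE 0.22, edgeR adjusted p = 0.125), and DESeq2 gave Itgax an adjusted p of 0.0355. Itgae averaged 16.4 ± 5.45 CPM in St2-/- hosts and 17.6 ± 3.10 CPM in WT hosts (SD, n = 6 each), with a log2 fold change of -0.11 (SE 0.23, adjusted p = 0.836). It shares its position, but no exonic base, with Haspin on the opposite strand.

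Per kilobase of exon, the scale on which genes can be compared, Itgax was highest over the 12 libraries, at 5.87 ± 2.08 CPM per kb (SD, n = 12), followed by Itgae at 3.71 ± 0.933 CPM per kb and Batf3 at 1.59 ± 1.06 CPM per kb. Clec9a was at 0.990 ± 0.533 CPM per kb and Xcr1 at 0.568 ± 0.338 CPM per kb. Clec10a at 0.431 ± 0.227, Flt3 at 0.390 ± 0.252, Cd209a at 0.380 ± 0.262 and Siglech at 0.325 ± 0.293 CPM per kb lay within 1 SD of each other. These SD are between libraries, and all genes were read in the same libraries, so they do not test the order. Clec9a was above Xcr1 per kb in every library, while Batf3 and Clec9a changed places between libraries. Zbtb46 had the lowest mean, at 0.168 ± 0.0610 CPM per kb, and lay within the SD of Siglech and that of Cd209a. The order of the low genes differed by host: Cd209a was at 0.389 ± 0.234 CPM per kb in St2-/- hosts, above Xcr1, and at 0.370 ± 0.310 CPM per kb in WT hosts, below Xcr1. In St2-/- hosts Clec9a was at 0.553 ± 0.113 CPM per kb and Xcr1 at 0.350 ± 0.158, and in WT hosts Clec9a was at 1.43 ± 0.392 and Xcr1 at 0.786 ± 0.336 CPM per kb (SD, n = 6 each).

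Across the 10 genes, 4 had an unadjusted p under 0.05 between hosts, Clec9a, Itgax, Xcr1 and Flt3, all lower in St2-/- hosts. Over all genes tested the share was 20.6% in either direction and 10.8% lower. The median log2 fold change was -1.21 for the 3 cross-presenting genes, -0.49 for the 7 others and -0.0015 for all genes tested. The cross-presenting genes had negative fold changes in 3 of 3 cases and the others in 5 of 7. These medians describe the lists and were given no test, and Flt3 among the others was as far from 0 as Xcr1. The mean log2 CPM of the cross-presenting genes minus that of the others was -0.83 to 0.14 in the St2-/- hosts and -0.34 to 0.61 in the WT hosts, with overlap. In WT => WT alone it was 0.39, 0.61 and 0.076.

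**Figure D2:**
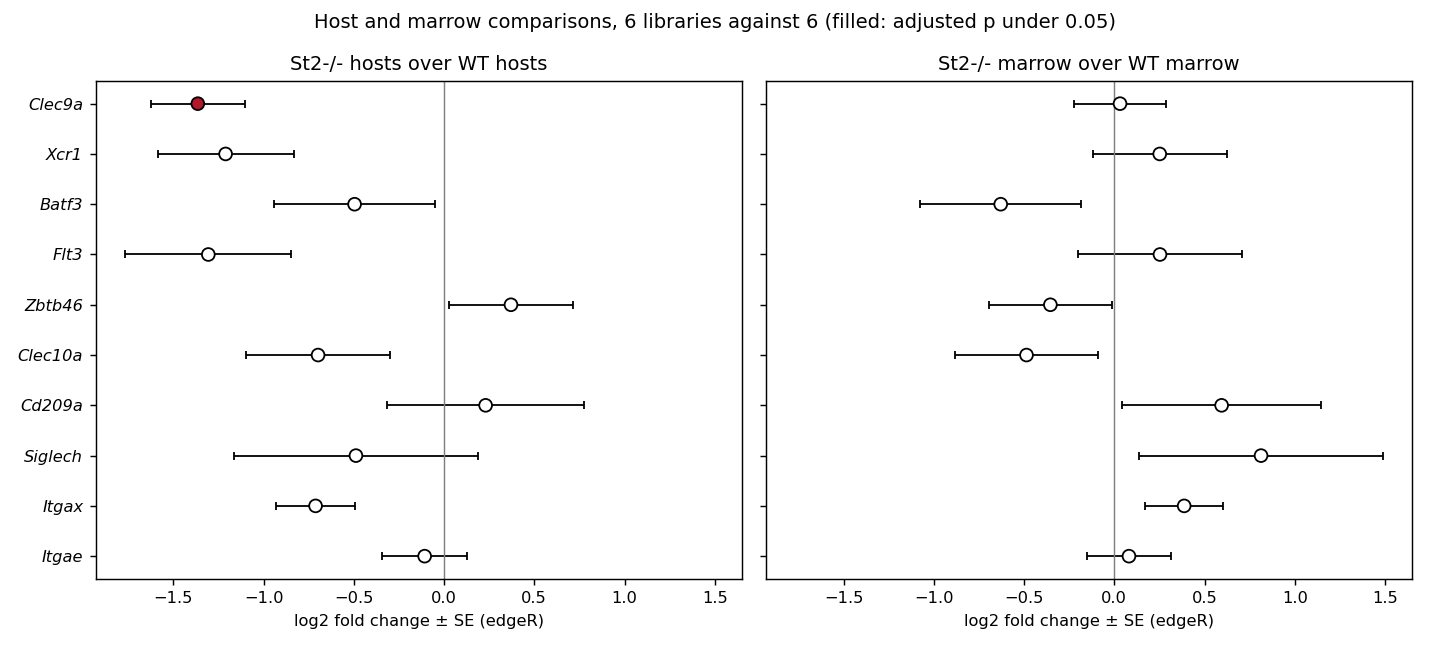
Log2 fold change of each dendritic cell gene with its SE (horizontal axis) for 6 St2-/- hosts over 6 WT hosts (left) and 6 libraries with St2-/- marrow over 6 with WT marrow (right), with called genes filled. Clec9a at -1.36 on the left is the 1 filled point, and on the right it lies at 0.032.

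Libraries differed in their content of leukocytes, and these values stand beside the result for Clec9a. The 5 pan-leukocyte markers summed to 105 to 534 CPM in St2-/- hosts and 158 to 473 CPM in WT hosts, with no marker at 0, and their median log2 fold change was -0.37. Of the 12 macrophage and monocyte markers tested 0 were called and 12 of 12 had negative fold changes (median -0.62). Of these markers 5 had an unadjusted p under 0.05, against 20.6% of all genes. The 12 markers summed to 393 to 1029 CPM in St2-/- hosts and 707 to 1694 CPM in WT hosts. With the pan-leukocyte level as a covariate, the log2 fold change of Clec9a was -1.21 (SE 0.24, edgeR adjusted p = 0.0523). Per 100 reads of Ptprc, the gene of the leukocyte antigen CD45, Clec9a had 6.76, 7.55 and 2.73 reads in WT => St2-/-, and 1.88, 7.26 and 4.16 reads in St2-/- => St2-/-. It had 4.45, 7.02 and 9.80 reads in St2-/- => WT, and 13.2, 9.01 and 8.50 reads in WT => WT. On this ratio the hosts overlapped. The 3 WT => WT libraries were above all 6 St2-/- hosts, whereas the St2-/- => WT libraries overlapped them. The part of leukocyte content in the result was not tested further.

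**Figure D3:**
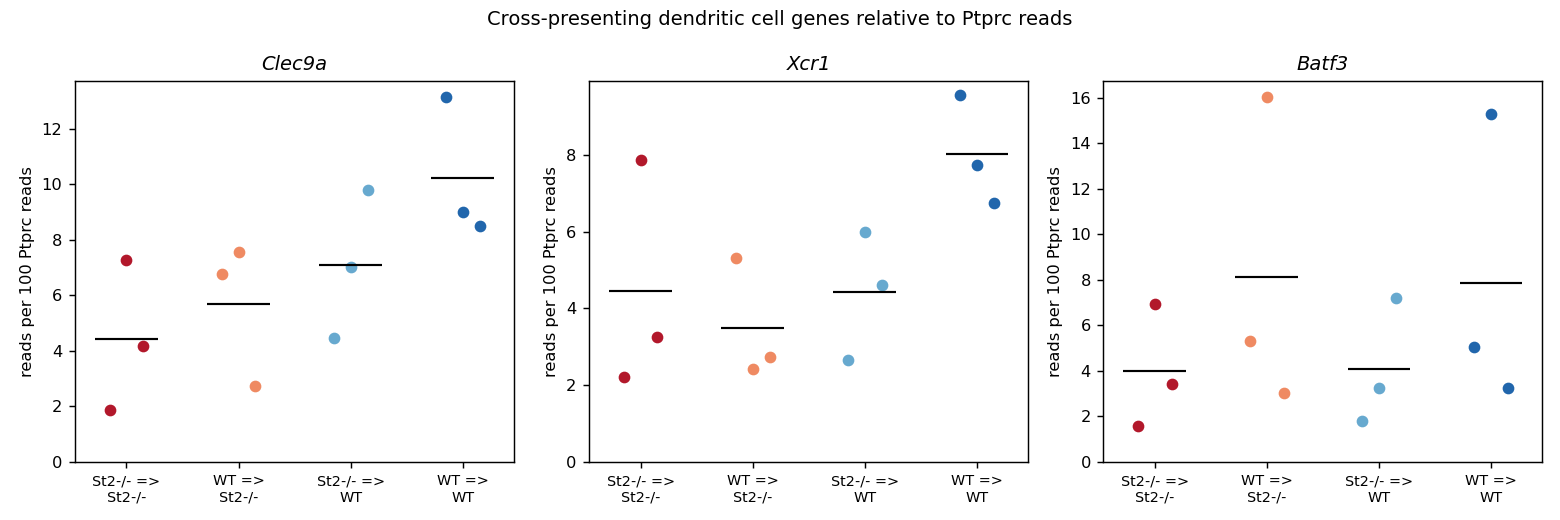
Reads of Clec9a, Xcr1 and Batf3 per 100 Ptprc reads (vertical axes, from 0) in the 3 libraries of each marrow => host group, with the mean as a bar. Clec9a lies at 1.88 to 7.55 in St2-/- hosts and at 4.45 to 13.2 in WT hosts.

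The host effect was also read within each marrow. With WT marrow (WT => St2-/- against WT => WT), 0 of the 10 genes were called by edgeR, against 0.159% of all genes. Clec9a had a log2 fold change of -1.52 (SE 0.37, adjusted p = 0.112), Xcr1 of -1.77 (SE 0.54, adjusted p = 0.177) and Batf3 of -0.56 (SE 0.63, adjusted p = 0.675). Itgax was at -1.16 (SE 0.31, adjusted p = 0.134) and Flt3 at -1.47 (SE 0.66, adjusted p = 0.294). Clec9a, Xcr1, Itgax and Flt3, 4 of the 10, had an unadjusted p under 0.05, against 16.7% of all genes, and DESeq2 called 3 of them, Clec9a, Xcr1 and Itgax, against 4.96% of all genes. The fold change of Batf3 was 0.30 without WT => WT replicate 2. Markers of other cells differed in this comparison too. Of the 12 macrophage and monocyte markers 8 were lower in WT => St2-/- at an unadjusted p under 0.05 (median -1.14), summing to 393 to 849 CPM in WT => St2-/- and 790 to 1694 CPM in WT => WT. Of the 6 smooth muscle markers 5 were higher at an unadjusted p under 0.05 (median 3.02), summing to 193 to 2493 CPM in WT => St2-/- and 106 to 264 CPM in WT => WT. No marker of either list was called by edgeR. With the pan-leukocyte covariate Clec9a was at -1.30 and Itgax at -0.91, and with the smooth muscle covariate they were at -2.07 and -1.89, with none called. The part of macrophage content in these values was not tested.

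With St2-/- marrow (St2-/- => St2-/- against St2-/- => WT), 0 of 10 were called by edgeR and by DESeq2, against 0.0598% of all genes by edgeR and 1.79% by DESeq2. Clec9a had a log2 fold change of -1.21 (SE 0.37, adjusted p = 0.321) and was the 1 gene with an unadjusted p under 0.05, against 12% of all genes. Xcr1 was at -0.65 (SE 0.52, adjusted p = 0.623), Batf3 at -0.43 (SE 0.64, adjusted p = 0.807), Flt3 at -1.14 (SE 0.64, adjusted p = 0.485) and Itgax at -0.26 (SE 0.30, adjusted p = 0.744). The 2 comparisons of hosts share no library. Xcr1 was at 0.091 without St2-/- => WT replicate 2. Tissue markers differed in this comparison. The 6 smooth muscle markers summed to 90.8 to 275 CPM in St2-/- => St2-/- and 296 to 2098 CPM in St2-/- => WT, and the 5 epithelial markers to 5325 to 6273 CPM in St2-/- => St2-/- and 7947 to 10597 CPM in St2-/- => WT, both without overlap. With the smooth muscle level as a covariate Batf3, Flt3 and Itgax turned to 0.31, 0.21 and 0.45, none of them called, and the part of tissue content in the result was not tested further.

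The difference between the 2 host effects was tested as the interaction of host and marrow, and 0 of 10 genes were called by edgeR or DESeq2 (0% of all genes by edgeR and 0.619% by DESeq2). None of the 10 had an unadjusted p under 0.05 in edgeR, against 7.6% of all genes. The host effect with St2-/- marrow minus that with WT marrow was 0.31 for Clec9a (SE 0.52, adjusted p = 0.906), 1.12 for Xcr1 (SE 0.75, adjusted p = 0.737), 0.13 for Batf3 (SE 0.90, adjusted p = 0.981) and 0.90 for Itgax (SE 0.43, adjusted p = 0.666), all on the log2 scale. A p above the threshold does not show that the host effects were equal, and the SE of 0.75 for Xcr1 and 0.90 for Batf3 leave room for large differences.

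St2-/- marrow against WT marrow asks whether ST2 in the transplanted cells, from which dendritic cells come, matters to their genes. The marrow genotype rests on the labels, since Il1rl1 did not separate the marrows. Averaged over hosts, 0 of the 10 genes were called by edgeR or DESeq2 (0% of all genes by either), and 0 had an unadjusted p under 0.05, against 2.76% of all genes. Clec9a averaged 3.22 ± 1.83 CPM with St2-/- marrow and 3.30 ± 1.85 CPM with WT marrow (SD, n = 6 each), a log2 fold change of 0.032 (SE 0.26, adjusted p = 0.999). Xcr1 was at 0.25 (SE 0.37), Batf3 at -0.63 (SE 0.45), Itgax at 0.39 (SE 0.22) and Siglech at 0.81 (SE 0.68), each with an adjusted p of 0.999. Siglech was at 0.13 without St2-/- => WT replicate 2, and Batf3 at -0.20 without WT => WT replicate 2. The median was 0.032 for the cross-presenting genes and 0.25 for the others, against -0.0036 for all genes. In all 10 genes the libraries with St2-/- marrow overlapped those with WT marrow. The share over all genes is not given here, so this overlap is not read as a trait of these genes.

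Within WT hosts (St2-/- => WT against WT => WT), 0 of 10 genes were called by edgeR or DESeq2 (0% of all genes by either), and 0 had an unadjusted p under 0.05, against 6.04% of all genes. Cd209a had the fold change farthest from 0, at 1.42 (SE 0.80, adjusted p = 0.81), from 17, 10 and 3 reads in St2-/- => WT and 4, 2 and 5 reads in WT => WT. Of the 6 smooth muscle markers 5 were higher in St2-/- => WT at an unadjusted p under 0.05 (median 2.85), with 0 called by edgeR. They summed to 296 to 2098 CPM in St2-/- => WT and 106 to 264 CPM in WT => WT. With the smooth muscle level as a covariate Cd209a was at -0.43, and the part of tissue content was not tested further. Within St2-/- hosts (St2-/- => St2-/- against WT => St2-/-), 0 of 10 were called by either tool (0% of all genes by edgeR and 0.0931% by DESeq2). Itgax was at 0.83 (SE 0.31, adjusted p = 0.995) and was the 1 gene with an unadjusted p under 0.05, against 4.05% of all genes. Its 3 St2-/- => St2-/- libraries, at 26.4 to 29.8 CPM, lay above the 3 WT => St2-/- libraries, at 9.14 to 20.7 CPM. The share of all genes separated in this way is not given here, so the separation is not read as a trait of Itgax. Of the 12 macrophage and monocyte markers 11 had positive fold changes, 4 of them at an unadjusted p under 0.05 (median 0.83), summing to 769 to 1029 CPM in St2-/- => St2-/- and 393 to 849 CPM in WT => St2-/-. Of the 6 smooth muscle markers 5 were lower at an unadjusted p under 0.05 (median -2.83), summing to 90.8 to 275 CPM in St2-/- => St2-/- and 193 to 2493 CPM in WT => St2-/-. No marker of either list was called by edgeR, and their part in the values of Itgax was not tested. Xcr1 was at 0.81 (SE 0.54, adjusted p = 0.995).

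Loss of ST2 in both host and marrow (St2-/- => St2-/- against WT => WT) gave 0 calls among the 10 genes by edgeR, against 0.0266% of all genes. Clec9a averaged 1.94 ± 0.242 CPM in St2-/- => St2-/- and 4.90 ± 0.842 CPM in WT => WT (SD, n = 3 each), a log2 fold change of -1.33 (SE 0.37, adjusted p = 0.208). It was the 1 gene with an unadjusted p under 0.05, against 13.7% of all genes, and it was called by DESeq2, which called 3.37% of all genes. Xcr1 was at -0.96 (SE 0.52, adjusted p = 0.434) and Batf3 at -1.13 (SE 0.64, adjusted p = 0.449). Without WT => WT replicate 2 the value of Batf3 was -0.26. This comparison shares its libraries with those above and is not independent of them.

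**Figure D4:**
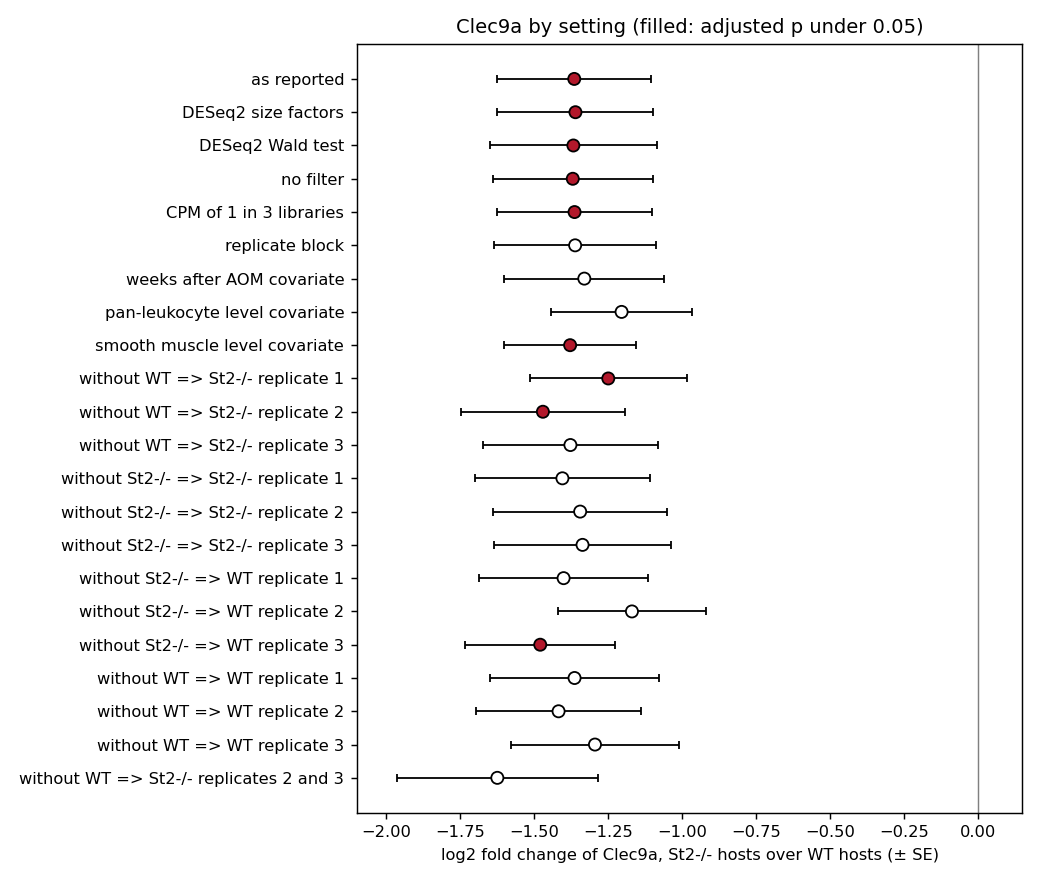
Log2 fold change of Clec9a between 6 St2-/- hosts and 6 WT hosts with its SE (horizontal axis) for each way of processing (vertical axis), with settings that called the gene filled. All values lie between -1.62 and -1.17, and 8 of the 21 alternatives kept the call.

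Other genes of dendritic cell biology were read from lists in the averaged comparison of hosts. Of all genes tested, 1.37% were called by edgeR, 1.08% fell, 20.6% had an unadjusted p under 0.05 and 10.8% had one and were lower. Of the type 1 programme 13 of 15 genes were tested, 0 were called by edgeR, and 6 had an unadjusted p under 0.05, 5 of them lower in St2-/- hosts (median -0.20). The 1 that was higher was Cadm1, at 0.95 (SE 0.42, edgeR adjusted p = 0.234), and 5 of the 13 fold changes were positive. Irf8, the transcription factor required for this lineage and also made by B cells and macrophages and induced by interferon-gamma, averaged 61.8 ± 18.6 CPM in St2-/- hosts and 133 ± 44.6 CPM in WT hosts (SD, n = 6 each). The hosts did not overlap, and the log2 fold change was -1.09 (SE 0.24, edgeR adjusted p = 0.0539). Naaa, a lysosomal amidase gene, was at -0.62 (SE 0.15, adjusted p = 0.0718), Tlr3, the sensor of double-stranded RNA, at -0.82 (SE 0.21, adjusted p = 0.0927) and Gcsam at -1.34 (SE 0.53, adjusted p = 0.2). Gcsam had 92 reads in St2-/- => WT replicate 2 and 9 to 23 in the other WT hosts, and was at -0.68 without that library.

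Of the type 2 programme 8 of 11 genes were tested and 0 were called by edgeR, with 1 higher and 2 lower at an unadjusted p under 0.05 (median -0.12), against 20.6% of all genes. Its members with the lowest p were Notch2, a receptor that these cells depend on and that many tissues make, at 0.43 (SE 0.12, adjusted p = 0.102), Tbx21, which T and NK cells also make, at -2.55 (SE 0.74, adjusted p = 0.116), Klf4 at -1.06 (SE 0.44, adjusted p = 0.214) and Itgam at -0.42 (SE 0.23, adjusted p = 0.324). Klf4 is also an epithelial gene of the colon, and was at -0.54 without WT => WT replicate 1. Of the plasmacytoid programme 11 of 13 were tested, 1 was higher and 2 lower at an unadjusted p under 0.05 (median -0.48), and 1 fell, against 1.08% of all genes. This was Irf7, the regulator of type I interferon that is itself induced by interferon in many cells. Irf7 averaged 130 ± 34.2 CPM in St2-/- hosts and 318 ± 83.8 CPM in WT hosts (SD, n = 6 each), without overlap, and its log2 fold change was -1.29 (SE 0.23, edgeR adjusted p = 0.0246). The call of Irf7 was lost without St2-/- => St2-/- replicates 1 or 3, St2-/- => WT replicate 2, WT => St2-/- replicate 3 or WT => WT replicate 2 (adjusted p 0.0517 to 0.0945). Bst2 was at -1.29 (SE 0.30, adjusted p = 0.0674), whereas Tcf4, the lineage factor, was at 0.90 (SE 0.30, adjusted p = 0.151) and Runx2 at 0.68 (SE 0.34, adjusted p = 0.281), or 0.30 without WT => St2-/- replicate 2. The cells that made Bst2, Tcf4 and Runx2 in these bulk samples were not identified. Siglech itself, given above, was not called.

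Of 16 maturation and migration genes, all tested, 1 fell and 4 had an unadjusted p under 0.05, all lower in St2-/- hosts (median -0.30), against 1.08% of all genes that fell and 20.6% with such a p. The gene that fell was Cd274, which encodes PD-L1 and is made by many cells, at -2.20 (SE 0.25, edgeR adjusted p = 0.00325). It averaged 13.2 ± 4.61 CPM in St2-/- hosts and 61.2 ± 25.4 CPM in WT hosts (SD, n = 6 each), without overlap, and the call of Cd274 held without any single library. Il12b, a subunit of interleukin-12, was at -2.65 (SE 0.64, adjusted p = 0.0718) from 0.145 ± 0.161 CPM in St2-/- hosts and 0.799 ± 0.435 CPM in WT hosts (SD, n = 6 each). Il15ra was at -0.91 (SE 0.25, adjusted p = 0.102) and Cd86, a costimulatory ligand, at -0.98 (SE 0.37, adjusted p = 0.191). Ccr7, the receptor that guides mature dendritic cells to lymph nodes, averaged 7.45 ± 6.51 CPM in St2-/- hosts and 7.25 ± 3.18 CPM in WT hosts.

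Of 11 growth factor, chemokine and receptor genes 10 were tested and 0 were called by edgeR, with 2 lower in St2-/- hosts at an unadjusted p under 0.05, a share close to the 20.6% of all genes. Ccl5, a chemokine gene of T and NK cells among others, was at -1.58 (SE 0.47, adjusted p = 0.12), Ccl4 at -1.28 (SE 0.49, adjusted p = 0.187) and Ccr2 at -0.66 (SE 0.31, adjusted p = 0.253). The list's median was -0.46, and Flt3l, the ligand of FLT3, was at -0.47 (SE 0.23, adjusted p = 0.267). Between marrows, averaged over hosts, 0 members of any of these 5 lists were called by edgeR, against 0% of all genes. In the order given here, 0 of 13, 2 of 8, 1 of 11, 1 of 16 and 1 of 10 had an unadjusted p under 0.05. The share over all genes was 2.76%, and each of these members was higher with St2-/- marrow. DESeq2 also called Irf8, Naaa, Tlr3, Notch2, Tbx21, Bst2, Tcf4, Il12b, Il15ra and Ccl5 between hosts. Of these lists, DESeq2 calls were read only for the genes named for a small edgeR p in that comparison. The count therefore cannot be set against the 7.96% of all genes that DESeq2 called.

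**Figure D5:**
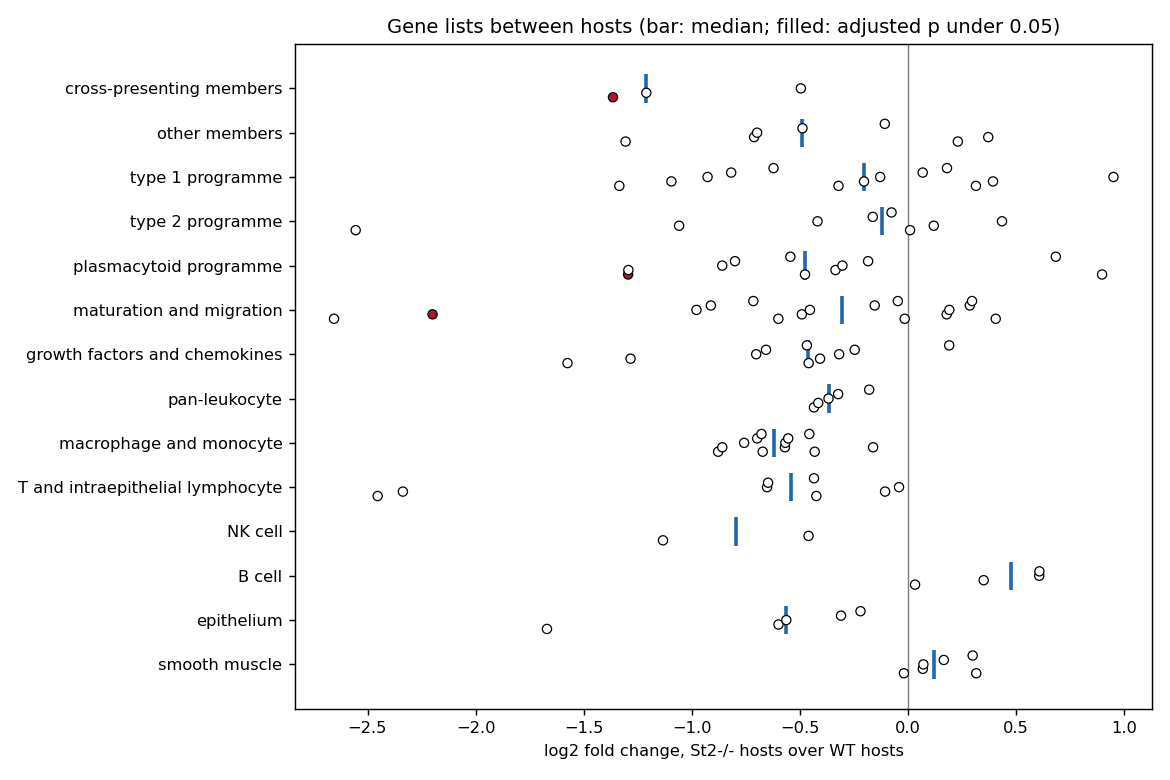
Log2 fold change of St2-/- hosts over WT hosts (horizontal axis) for each tested gene of each list (rows), with the list's median as a bar and called genes filled. The called genes are Clec9a, Irf7 and Cd274, and the cross-presenting genes have a median of -1.21.

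Markers of other leukocytes give the surroundings of these values. Of 8 T and intraepithelial lymphocyte markers 0 were called by edgeR and all 8 had negative fold changes (median -0.54), 2 of them at an unadjusted p under 0.05. They summed to 18.7 to 75.6 CPM in St2-/- hosts and 40.6 to 99.9 CPM in WT hosts. Cd8a, made by CD8 T cells and by some cross-presenting dendritic cells of lymphoid organs, averaged 1.98 ± 2.13 CPM in St2-/- hosts and 10.3 ± 3.05 CPM in WT hosts (SD, n = 6 each), without overlap, at -2.45 (SE 0.60, edgeR adjusted p = 0.0793). Cd8b1, which those dendritic cells lack, was at -2.34 (SE 0.64, adjusted p = 0.102), also without overlap. DESeq2 called both, with an adjusted p of 0.00139 for Cd8a and 0.00641 for Cd8b1. Of 4 B cell markers 0 were called by edgeR, and their median was 0.48. Of 4 NK cell markers 2 were tested and 0 were called (median -0.80). The 5 epithelial markers all had negative fold changes (median -0.56), 3 of them at an unadjusted p under 0.05, against 20.6% of all genes. The 6 smooth muscle markers had a median of 0.12, and 0 had such a p. In each of these 2 lists 0 were called. The part of epithelial content in the result for Clec9a was not tested. None of the marker lists had a marker at 0 in all libraries of a host.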

How the data were processed

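RNA of 12 colon tumours was sequenced as single-end reads from TruSeq libraries, per the labels' protocols. TopHat, Bowtie2 and the build GRCm38 (mm10) are named in the submitters' processing notes. Versions, the tool that assigned reads to genes and its strand setting are not given in the sources used here. What the authors deposited were whole-number counts for 24062 genes, not normalized, plus 5 summary entries without a gene, which held 49.8% to 59.6% of a library's total and were left out, with a higher share in most St2-/- hosts.

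Counts were analysed with edgeR 4.0.16 in R 4.3.3. The filter filterByExpr with a minimum count of 10 left 15060 genes, and TMM factors were computed. A robust quasi-likelihood model with 1 coefficient per group over all 12 libraries gave 8 two-sided contrasts, Benjamini-Hochberg adjusted over all genes and called under 0.05. SE of log2 fold changes are derived from the F statistic. CPM are TMM-scaled. Exonic lengths and positions came from GENCODE M21 on GRCm38. Replicates are separate samples per the labels, so p-values measure the spread between these tumours. The model was also run on counts simulated from the mean levels and fitted spread of these data. Such counts share the model's assumptions, so they cannot check those or differences of tissue or cohort.

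Alternatives were DESeq2 1.42.0 size factors and Wald test, other filters, a replicate block, covariates for weeks, leukocytes and smooth muscle, only the 2 groups compared, and libraries left out. The rule for named genes took the 10 genes and the 4 members with the smallest p of each pathway list in the averaged host comparison. Xcl1, Ccr7, Cadm1, Cd8a and Cd8b1 were added after their values were seen. The 10 genes and all lists were chosen with earlier results of these data known. One listed gene is not reported here.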

Additional observations from a re-analysis of the deposited data

Results flagged for a closer look

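The 10 genes were screened for libraries far from the other 5 of the same host, pooling both marrows of a host, which gave 20 sets of 6 libraries. In 3 sets 1 library stood apart, and chance flags about 1 in 20. Batf3 was 4.61 CPM in WT => St2-/- replicate 2, with the nearest St2-/- host at 1.93 CPM. Batf3 was 7.05 CPM in WT => WT replicate 2, with the nearest WT host at 3.00 CPM. Siglech was 3.69 CPM in St2-/- => WT replicate 2, with the nearest WT host at 1.35 CPM. The same library had Clec9a, Xcr1 and Flt3 at their highest, 6.51, 5.57 and 5.40 CPM. At the other end, WT => St2-/- replicate 1 was the lowest library for 7 of the 10 genes and had the lowest pan-leukocyte sum, 105 CPM.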

How the results depend on the processing

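The fold change of Clec9a between hosts kept its direction in all 21 alternatives (-1.62 to -1.17), and 8 of them kept the call, with adjusted p between 0.00012 and 0.128. The number of the 10 genes called between hosts was 1 as reported, 3 with the DESeq2 Wald test (Clec9a, Xcr1 and Itgax), 2 with the smooth muscle covariate (Clec9a and Itgax), 0 with weeks after AOM, 0 with the pan-leukocyte covariate, 0 without WT => St2-/- replicates 2 and 3 together, and 0 to 1 with libraries left out singly. With the replicate block it was 0, and Clec9a had -1.36 and an adjusted p of 0.064. Same-numbered libraries did not deviate together (correlations -0.44 to 0.308 over 18 pairs, and 1 of 12 libraries closest to its own number), so the numbers are not taken as pairing. DESeq2 also called 3 genes with WT marrow and 1 in the full comparison. In the other comparisons the count of 0 held throughout. The cause of these shifts was not tested. Of the calls in the other lists, Irf7 held in 14 and Cd274 in 20 of 21 alternatives.

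Over all genes, 206 were called between hosts, against 8 without the 2 WT => St2-/- libraries, 80 to 484 with libraries left out singly, 358 with the smooth muscle covariate and 1196 by DESeq2. The counts of 24, 9, 4, 0 and 0 genes (host with WT marrow, host with St2-/- marrow, full loss, marrow in St2-/- hosts, interaction) ranged over 1 to 746, 1 to 264, 1 to 457, 0 to 14 and 0 to 93. 

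Signs that turned, none of them called, were as follows. Between hosts, Siglech was 0.12 and Itgae 0.029 with the pan-leukocyte covariate, and Cd209a -0.45 without both WT => St2-/- libraries. With libraries left out singly, Itgae ranged over -0.25 to 0.037, Cd209a over -0.091 to 0.54 and Siglech over -0.96 to 0.20. With WT marrow Batf3 ranged over -1.36 to 0.30, and with St2-/- marrow Xcr1 over -1 to 0.091. With the smooth muscle covariate and St2-/- marrow, Batf3 was 0.31, Flt3 0.21 and Itgax 0.45, and Cd209a between marrows in WT hosts was -0.43. Between marrows, Clec9a was -0.11 and Xcr1 -0.0045 with the pan-leukocyte covariate, and Batf3 was 0.074 without both WT => St2-/- libraries. Singly, Clec9a ranged over -0.16 to 0.15 and Xcr1 over -0.12 to 0.48. The interaction of Batf3 was -0.0067 with the pan-leukocyte covariate and -0.73 to 0.93 singly. With libraries left out singly, 26 of the 57 fold changes examined moved by over 1.5 times or turned, none of them a called one. Among these 26, St2-/- => WT replicate 2 and WT => WT replicate 2 were most often behind the farthest value, the latter for Batf3 only. Cd209a was not tested with the stricter filter of CPM 1 in 3 libraries.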
